A study of Mus musculus with 22 samples.

Results

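The JAK, STAT3 and SOCS signalling genes are the kinases Jak1, Jak2 and Tyk2, the transcription factor Stat3, the phosphatase Ptpn11 and the inhibitors Socs1, Socs2, Socs3, Cish and Pias3. They were taken as a list of gene symbols, drawn up with earlier results of these data known, and all 10 of them were found among the 19935 genes tested. They were read by 12 of the 28815 probe sets on the array, since 8 members had 1 probe set each and Socs2 and Socs3 had 2 probe sets each.

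Cytokines of the interleukin-6 (IL-6) family bind a receptor that shares the gp130 chain, and the Janus kinases bound to that chain phosphorylate STAT3, which enters the nucleus and switches on target genes. Stat3 and Socs3 are themselves STAT3 target genes. The SOCS3 protein binds gp130 and the kinases and shuts the signal off, SOCS1 restrains interferon signalling, and SOCS2 and CISH restrain STAT5 signalling from the growth hormone and related receptors. In the hypothalamus the same route carries leptin and IL-6 signals to neurons and to blood vessel cells, and it takes part in fever.

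Expression was measured on 22 Affymetrix gene arrays of hypothalamus from male C57bl6 mice, 9 to 12 weeks old and housed singly. The genotypes were mice deficient in IL-6 (labelled IL-6 KO) and wild-type (WT) littermates, and the labels do not describe the targeted allele. Each mouse had received 1 intraperitoneal injection of saline or of 120 µg/kg lipopolysaccharide (LPS, the cell wall component of Escherichia coli that sets off inflammation and fever) and was killed 3 h later and perfused with saline. The groups held 4 arrays of WT saline, 7 of WT LPS, 4 of KO saline and 7 of KO LPS, and the design text asks whether genes that differ between LPS-treated genotypes could account for the missing fever of the KO mice. Whether every array came from its own mouse is not in the labels; the p-values therefore cover only array-to-array spread, which may be technical.

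The deposited values were log2 differences from the median array of each probe set, so every value below is such a difference and no level of a gene was available. For the same reason the tissue label could not be checked against the levels of marker genes. The arrays' own medians lay between -0.016 and 0.029. Il6 did not separate the labelled genotypes (KO against WT after LPS: 0.17, SE 0.07, limma adjusted p = 0.397), and the part of the gene that its probes read relative to the deletion is not given in the sources used here, so it did not check the labels; "KO" below means the label. Array numbers in the titles, whose meaning the labels do not give, divided the arrays into 1 to 11 and 12 to 22. Between these blocks 21.5% of the genes differed, and the blocks held unequal numbers of each group. They held 3 and 1 arrays of WT saline and 5 and 2 of WT LPS. Of the KO arrays they held 1 and 3 of saline and 2 and 5 of LPS. Listed genes whose call changed with the block as a term are therefore named in the comparisons shown. For Stat3 and Socs3, values with the block as a term are given in some of the comparisons only. No call of a member averaged per gene changed with the block as a term.

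Sequence just before the start of transcription was taken from RefSeq (GRCm38.p6) for 9 of the members, all but Socs2. It is shown for Stat3, which was called after LPS in WT mice, for Socs3, whose probe sets disagreed, and for the inhibitors Cish and Socs1, which carried a STAT or interferon type of motif. The motifs searched, on both strands from 250 bases before to 50 bases after each start, were the STAT palindrome TTCNNNGAA, present in 8.3% of 32851 promoters, and the interferon type repeat GAAANNGAAA, present in 3.44%. Capitals mark the matches. The Socs3 promoter is chr11:117969367-117969616 (minus strand), Stat3 chr11:100939541-100939790 (minus strand), Cish chr9:107296654-107296683 (plus strand, across the start) and Socs1 chr16:10785537-10785686 (minus strand), all written 5′ to 3′ in the direction of transcription.
Socs3: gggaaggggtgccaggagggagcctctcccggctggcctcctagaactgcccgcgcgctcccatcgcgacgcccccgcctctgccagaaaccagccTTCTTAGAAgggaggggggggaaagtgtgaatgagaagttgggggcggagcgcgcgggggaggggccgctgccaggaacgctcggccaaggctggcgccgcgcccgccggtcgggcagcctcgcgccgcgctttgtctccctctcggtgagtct
Stat3: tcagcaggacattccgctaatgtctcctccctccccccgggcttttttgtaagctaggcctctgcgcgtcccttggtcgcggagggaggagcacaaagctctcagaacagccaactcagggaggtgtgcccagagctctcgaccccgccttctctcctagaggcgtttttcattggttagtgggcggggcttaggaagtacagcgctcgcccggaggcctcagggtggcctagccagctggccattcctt
Cish: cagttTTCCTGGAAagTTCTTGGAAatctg
Socs1: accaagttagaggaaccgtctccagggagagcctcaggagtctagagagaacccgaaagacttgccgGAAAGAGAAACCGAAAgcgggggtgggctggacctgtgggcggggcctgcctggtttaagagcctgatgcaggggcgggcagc
The Socs3 window held 1 STAT palindrome, TTCTTAGAA, which begins 154 bases before the start. The Cish window held 2, TTCCTGGAA and TTCTTGGAA, which begin at bases 1 and 12 after the start. No TTCNNNGAA was found in the windows of Stat3, Socs1, Jak1, Jak2, Tyk2, Pias3 or Ptpn11. The Socs1 window held 2 overlapping GAAANNGAAA repeats, GAAAGAGAAA and GAAACCGAAA, which begin 83 and 77 bases before the start, and the other windows held none. Such matches describe letters, not binding.

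Of the 10 members, Stat3 and Socs2 rose after LPS in WT mice and none fell. Stat3 rose by 0.28 (SE 0.06; 1.22-fold) and Socs2 by 0.36 (SE 0.07; 1.29-fold). That is 2 of 10 members called higher at an adjusted p under 0.05, against 1.42% of all genes, with p-values adjusted by the Benjamini-Hochberg method over all genes. The median difference over the members was 0.11, beside -0.01 over all genes. In 4 members, Stat3, Socs2, Socs3 and Ptpn11, every WT LPS array lay above every WT saline array, which 1.63% of all genes showed. The same 4 had an unadjusted p under 0.05, as did 6.42% of genes. In KO mice 0 of 10 members were called, against 1.34% of all genes, while 4 members had an unadjusted p under 0.05 (Stat3, Socs2, Ptpn11 and Pias3; 5.84% of all genes). The members' median there was 0.0051. Ptpn11 was the member whose KO LPS and KO saline arrays did not overlap, with LPS higher, as in 1.21% of genes. The WT and KO responses are compared directly in the tests of the interaction given further on.

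**Figure D1:**
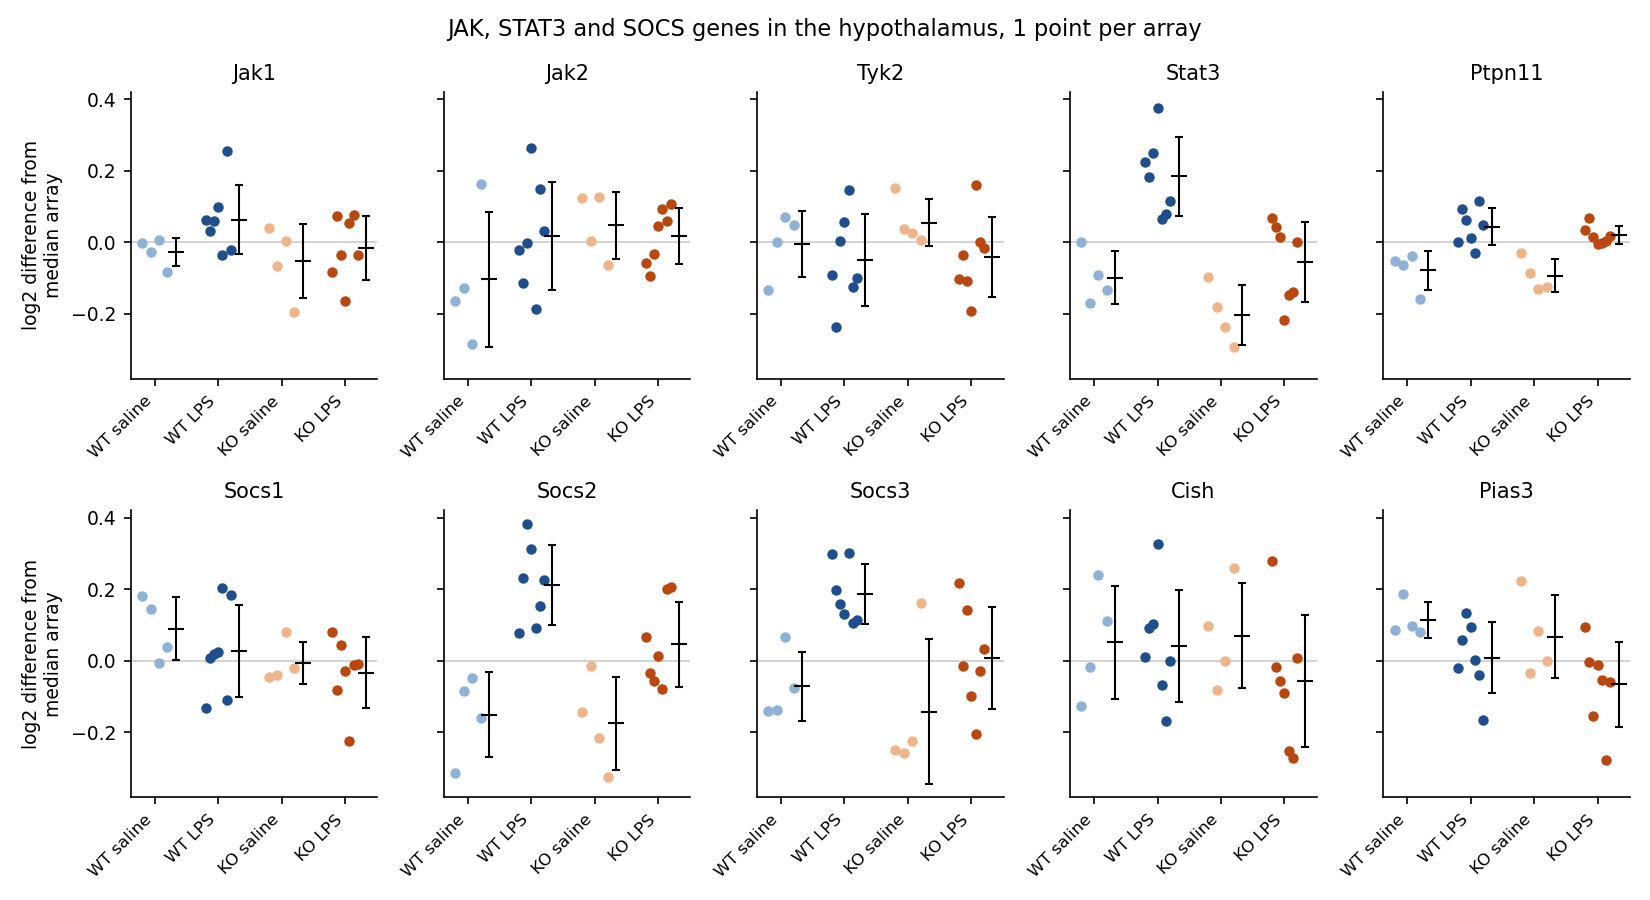
Log2 difference from the median array (y axis) for each of the 10 genes in WT saline, WT LPS, KO saline and KO LPS; each point is 1 array and the bars are the group mean and SD. Stat3, Socs2, Socs3 and Ptpn11 have all 7 WT LPS arrays above the 4 WT saline arrays. Jak1, Jak2, Tyk2, Socs1, Cish and Pias3 overlap between all groups.

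The receptor-bound kinases come first in the pathway. Jak1, which serves gp130 and the interferon receptors, ranged from -0.083 to 0.0065 in WT saline and had a lowest value of -0.036, a median of 0.060 and a highest value of 0.25 in WT LPS. In KO mice Jak1 ranged from -0.19 to 0.041 after saline and from -0.17 to 0.075 after LPS. The groups overlapped in both genotypes, and the differences were 0.09 (SE 0.06) in WT and 0.04 (SE 0.06) in KO. Jak2, the kinase of the leptin and growth hormone receptors, ranged from -0.28 to 0.16 in WT saline and from -0.19 to 0.26 in WT LPS. Its difference was 0.12 (SE 0.08) in WT and -0.03 (SE 0.08) in KO, where the saline arrays ran from -0.063 to 0.13 and the LPS arrays from -0.094 to 0.11. Tyk2, a kinase of the type I interferon and IL-6 family receptors, differed by -0.05 (SE 0.07) in WT and by -0.10 (SE 0.07) in KO. All 4 KO saline arrays of Tyk2 lay between 0.0057 and 0.15, and 6 of the 7 KO LPS arrays lay below the lowest of them. No kinase passed (adjusted p = 0.9997 for each in WT and 0.9998 in KO, limma), and the 95% confidence intervals of the WT differences reached from -0.03 to 0.21 for Jak1, from -0.04 to 0.28 for Jak2 and from -0.18 to 0.09 for Tyk2.

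Stat3, the transcription factor downstream of IL-6 and leptin, gave 7.15e-05, -0.17, -0.093 and -0.135 in the WT saline arrays. In WT LPS its lowest value was 0.065, its median 0.18 and its highest 0.38. All 7 WT LPS arrays lay above all 4 WT saline arrays. The difference of 0.28 (SE 0.06) had an adjusted p of 0.0102 (limma) and stood at rank 268 of all genes by p. In KO saline Stat3 gave -0.098, -0.18, -0.24 and -0.29, and in KO LPS the lowest, median and highest values were -0.22, -7.06e-05 and 0.067. In KO mice 4 of the 7 LPS arrays lay above the saline arrays and 3 lay among them; the difference was 0.15 (SE 0.06, adjusted p = 0.648). From low to high the group means ran KO saline (-0.20), WT saline (-0.10), KO LPS (-0.05) and WT LPS (0.18), and the arrays of every neighbouring pair in that order overlapped.

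The Stat3 call in WT mice was lost on leaving out WT saline replicate 2 (0.26, adjusted p = 0.0661) and within arrays 12 to 22, where 1 WT saline array remained (0.23, adjusted p = 0.726). Within arrays 1 to 11 it was 0.31 (SE 0.07, adjusted p = 0.031), and with the block as a term 0.29 (SE 0.05, adjusted p = 0.00148). Stat3 itself differed between the array-number blocks, by -0.12 for the later against the earlier arrays (adjusted p = 0.0333).

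Ptpn11 encodes SHP2, a phosphatase that binds gp130 at the same docking tyrosine as SOCS3. Its WT saline arrays gave -0.052, -0.065, -0.039 and -0.16, and its WT LPS arrays had a lowest value of -0.029, a median of 0.048 and a highest of 0.11. In KO saline Ptpn11 gave -0.029, -0.087, -0.13 and -0.125, while the KO LPS arrays lay between -0.0040 and 0.068 with a median of 0.014. LPS arrays were above saline arrays without overlap in both genotypes, 7 of 7 each time. The differences were 0.12 (SE 0.04, adjusted p = 0.135) in WT and 0.11 (SE 0.04, adjusted p = 0.256) in KO, and neither passed. Averaged over both genotypes Ptpn11 rose by 0.12 (SE 0.03, adjusted p = 0.00813), 1.08-fold.

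With probe sets averaged per gene, Socs2 showed the largest LPS difference among the members, although 1 Socs3 probe set rose by more (0.54). Its WT saline arrays gave -0.31, -0.084, -0.048 and -0.16, and its WT LPS arrays had a lowest value of 0.078, a median of 0.23 and a highest of 0.38. The groups did not overlap, and the difference of 0.36 (SE 0.07) had an adjusted p of 0.00339 (limma). In KO saline Socs2 gave -0.14, -0.015, -0.22 and -0.33, and the KO LPS arrays had a lowest value of -0.078, a median of 0.012 and a highest of 0.21. There 4 of 7 KO LPS arrays lay above all KO saline arrays, and the difference of 0.22 (SE 0.07) did not pass (adjusted p = 0.238). The order of the group means was KO saline (-0.17), WT saline (-0.15), KO LPS (0.05) and WT LPS (0.21), again with overlap between neighbours. Within arrays 1 to 11 the WT difference was 0.37 (adjusted p = 0.0354), and within arrays 12 to 22 it was 0.35 (adjusted p = 0.665).

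Both Socs2 probe sets moved the same way in WT mice: probe set 10394674 rose by 0.42 (SE 0.10, adjusted p = 0.0216 over all probe sets) and probe set 10372069 by 0.30 (SE 0.06, adjusted p = 0.0032). The WT call of probe set 10394674 was lost without WT saline replicate 1 (0.36, adjusted p = 0.159) or WT saline replicate 4 (0.42, adjusted p = 0.07). It was also lost without WT LPS replicate 3 (0.38, adjusted p = 0.0515). In KO mice both Socs2 probe sets were higher after LPS too, but the groups overlapped and neither passed. Probe set 10394674 differed there by 0.26 (SE 0.10, limma adjusted p = 0.566) and probe set 10372069 by 0.18 (SE 0.06, adjusted p = 0.239). Across the 22 arrays the Socs2 probe sets had a Pearson r of 0.87, and 0.70 after removal of the group and block means; these points share the hybridised sample.

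Socs3, the feedback inhibitor of gp130 signalling, gave -0.14, -0.14, 0.068 and -0.077 in WT saline when its probe sets were averaged. In WT LPS the lowest, median and highest averaged values were 0.11, 0.16 and 0.30, and all 7 arrays lay above the saline arrays. This averaged difference of 0.26 (SE 0.08) had an adjusted p of 0.135 (limma). In KO saline the average gave -0.25, -0.26, -0.22 and 0.16, and in KO LPS it ran from -0.21 to 0.22 with a median of -0.014, a difference of 0.15 (SE 0.08, adjusted p = 0.95). From low to high the group means were KO saline (-0.14), WT saline (-0.07), KO LPS (0.0069) and WT LPS (0.19), each overlapping with its neighbour.

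The average hid a disagreement between the Socs3 probe sets. Probe set 10393449, whose platform annotation lists the RefSeq mRNA NM_007707, gave -0.15, -0.20, -0.13 and -0.44 in WT saline. In WT LPS it had a lowest value of 0.12, a median of 0.30 and a highest of 0.51. Every WT LPS array lay above every WT saline array, and the rise of 0.54 (SE 0.10; 1.46-fold) passed with an adjusted p of 0.00196 over 28815 probe sets, of which 1.52% were called. Leaving out any 1 of the 22 arrays kept this rise between 0.47 and 0.58 with an adjusted p of at most 0.0192. With the block as a term it was 0.55 (SE 0.10, adjusted p = 0.00112), within arrays 1 to 11 it was 0.52 (adjusted p = 0.00995) and within arrays 12 to 22 it was 0.64 (SE 0.20, adjusted p = 0.502).

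Probe set 10383010, whose annotation lists the mRNA record U72673 and no RefSeq mRNA, gave -0.13, -0.077, 0.265 and 0.29 in WT saline. In WT LPS it had a lowest value of -0.059, a median of 0.064 and a highest of 0.30. The groups overlapped and the difference was -0.03 (SE 0.10). Across the 22 arrays the Socs3 probe sets had a Pearson r of 0.24, and 0.30 after removal of the group and block means, beside 0.87 and 0.70 for those of Socs2. Which probe set reads Socs3 mRNA more faithfully was not tested; the annotation given with the data assigns both to Socs3.

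In KO mice probe set 10393449 gave -0.33, -0.33, -0.31 and 0.029 after saline, and a lowest value of -0.26, a median of -0.029 and a highest of 0.27 after LPS. KO saline replicate 4 stood above the other KO saline arrays, and 3 of the 7 KO LPS arrays lay above it. The difference was 0.23 (SE 0.10, adjusted p = 0.765), or 0.32 (SE 0.10, adjusted p = 0.295) without that replicate. The KO difference of probe set 10383010 was 0.07 (SE 0.10), over saline values of -0.17, -0.19, -0.13 and 0.29 and LPS values from -0.16 to 0.16. It was again KO saline replicate 4 that stood high.

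**Figure D2:**
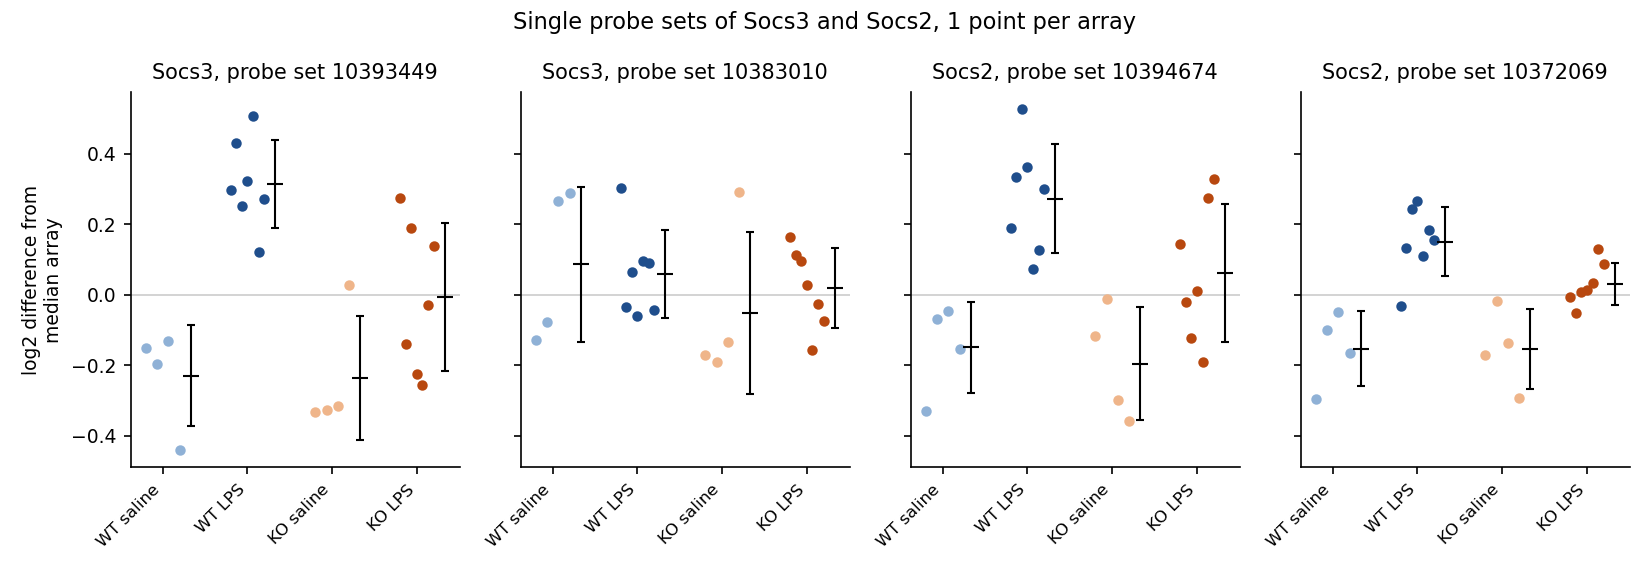
Log2 difference from the median array (y axis) for each probe set of Socs3 and Socs2 in the 4 groups; points are arrays, bars are the mean and SD. Socs3 probe set 10393449 rose in WT LPS (by 0.54) while probe set 10383010 of the same gene did not (-0.03), and both Socs2 probe sets rose.

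Of the remaining inhibitors none was called. Socs1, induced by interferons in many cells, ranged from -0.0071 to 0.18 in WT saline and from -0.13 to 0.20 in WT LPS. Its differences were -0.06 (SE 0.06) in WT and -0.03 (SE 0.06) in KO. Cish, a STAT5 target that restrains the growth hormone and erythropoietin receptors, ranged from -0.13 to 0.24 in WT saline, from -0.17 to 0.33 in WT LPS, from -0.082 to 0.26 in KO saline and from -0.27 to 0.28 in KO LPS. It was the member with the widest intervals, -0.21 to 0.19 around a difference of -0.01 in WT, so changes of the size seen in Stat3 in KO mice were within reach of its error. Pias3, which binds active STAT3 and keeps it from DNA, gave 0.086, 0.19, 0.098 and 0.080 in WT saline, and -0.17, 0.0016 and 0.13 as lowest, median and highest values in WT LPS. In KO mice Pias3 gave 0.22, -0.035, 0.083 and -0.0016 after saline and ran from -0.28 to 0.095 after LPS. Of its LPS arrays, 5 of 7 lay below the lowest saline array in WT and 4 of 7 in KO, and the differences were -0.10 (SE 0.06, adjusted p = 0.985) and -0.13 (SE 0.06, adjusted p = 0.83). Pias3 also differed between the array-number blocks, by -0.15 (adjusted p = 0.00718).

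Averaged over both genotypes, 4 members rose after LPS: Socs2 by 0.29 (SE 0.05, adjusted p = 0.000493), Stat3 by 0.22 (SE 0.04, adjusted p = 0.00329), Ptpn11 as given above, and Socs3 by 0.20 (SE 0.06, adjusted p = 0.0438). Among all genes 1.99% were called higher in this average. The call of the averaged Socs3 value was lost in 16 of the 22 fits that left out 1 array, and its difference lay between 0.18 and 0.25 over all 22; the single arrays are named in the closing section. Its probe set 10393449 had 0.39 (SE 0.07, adjusted p = 0.00122). Pias3 was the lowest member at -0.12 (SE 0.04, adjusted p = 0.271).

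No member was called between genotypes after LPS, where 0.0401% of all genes were called (8 genes). By unadjusted p, 3 members were under 0.05, against 11.4% of all genes, and these were Stat3, Socs2 and Socs3. Stat3 differed by -0.24 (SE 0.05; 0.847-fold, unadjusted p = 0.00016) and stood at rank 23 by p, with an adjusted p of 0.134. For Stat3, 6 of 7 KO LPS arrays lay below the lowest WT LPS array. Socs2 differed by -0.17 (SE 0.06, adjusted p = 0.344) and Socs3 by -0.18 (SE 0.07, adjusted p = 0.349), each with 5 of 7 KO LPS arrays below the lowest WT LPS array. Socs3 probe set 10393449 differed by -0.32 (SE 0.08, adjusted p = 0.272 over all probe sets, of which 0.0312% were called), with 4 of 7 KO LPS arrays below the WT LPS arrays, and probe set 10383010 by -0.04 (SE 0.08). In all, 8 of the 10 members were below 0, as were 51.7% of genes, and the members' median was -0.08.

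The Stat3 genotype difference after LPS passed in 2 alternative fits: without KO LPS replicate 1 (-0.26, SE 0.05, adjusted p = 0.0416) and with arrays weighted by their quality (-0.28, SE 0.05, adjusted p = 0.0137). With the block as a term it was -0.19 (SE 0.05, adjusted p = 0.492), within arrays 1 to 11 -0.17 (SE 0.08, adjusted p = 1) and within arrays 12 to 22 -0.20 (SE 0.07, adjusted p = 0.644). The block moved with this comparison, since 5 of 7 WT LPS arrays and 2 of 7 KO LPS arrays were among arrays 1 to 11. For probe set 10393449 of Socs3 the block value was -0.27 (SE 0.09, adjusted p = 0.869).

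After saline 0 of 10 members were called between genotypes by limma, as were 0.00502% of genes, and 0 had an unadjusted p under 0.05, against 5.17% of genes. The largest differences were 0.15 (SE 0.09) for Jak2 and -0.10 (SE 0.07) for Stat3. With the block as a term these were 0.09 (SE 0.08) and -0.04 (SE 0.06). Averaged over both treatments Stat3 was at -0.17 (SE 0.04, adjusted p = 0.158) and Socs3 at -0.13 (SE 0.06, adjusted p = 0.265). With the block as a term they were at -0.11 (SE 0.04, limma adjusted p = 0.838) and -0.10 (SE 0.06, adjusted p = 0.911). In the fit without the block 0 members were called, as were 0.0251% of genes. Unadjusted p was under 0.05 there in 2 members and in 16.3% of genes.

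The interaction, which sets the KO response against the WT response, called 0 of 19935 genes. All 10 members had an adjusted p of 0.999994, and 0 had an unadjusted p under 0.05, against 1.64% of genes. The interaction of Stat3 was -0.14 (SE 0.09), with a 95% confidence interval from -0.32 to 0.05. That of Socs2 was -0.14 (SE 0.10; -0.35 to 0.07) and that of Socs3 -0.11 (SE 0.11; -0.34 to 0.12). Socs3 probe set 10393449 had -0.31 (SE 0.14; -0.61 to -0.02), with an unadjusted p of 0.0351 and an adjusted p of 1. So Stat3 and Socs2 passed in WT mice and not in KO mice, but a difference between the genotypes' responses was not shown, and the intervals of both genes include 0 as well as differences as large as their KO responses. In 9 members the interaction was below 0, as it was in 50.2% of genes; the exception was Socs1 (0.03, SE 0.09). The WT and KO responses and the genotype difference after LPS share arrays and are set side by side here.

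**Figure D3:**
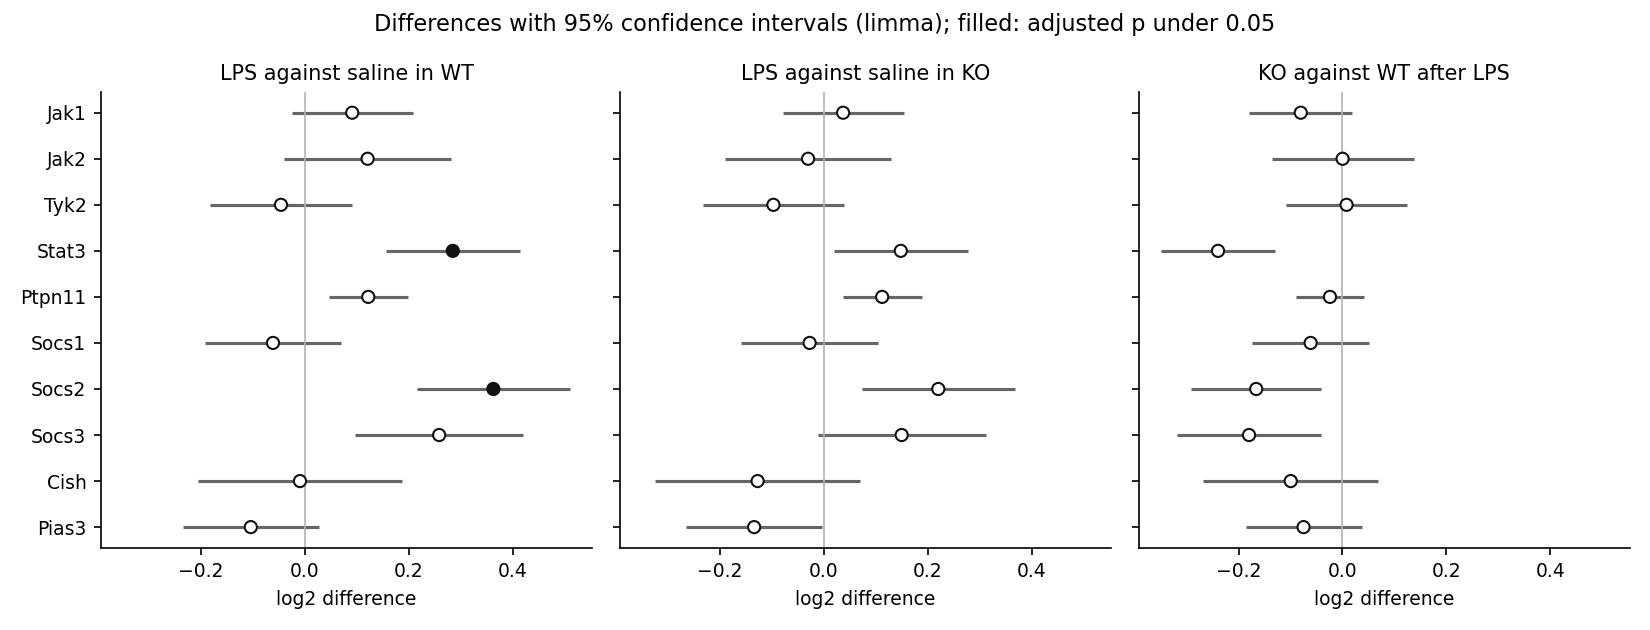
Log2 difference (x axis) with its 95% confidence interval for each gene (y axis) in LPS against saline in WT, LPS against saline in KO, and KO against WT after LPS; filled points have a limma adjusted p under 0.05. The filled points are Stat3 (0.28) and Socs2 (0.36) in WT, and Stat3 is lowest in KO against WT after LPS (-0.24).

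Upstream of the members, of 14 measured genes for receptors that signal through these kinases, 3 rose and 1 fell in WT mice: Osmr, the oncostatin M receptor, by 1.23 (SE 0.15), Lifr, the leukaemia inhibitory factor receptor, by 0.39 (SE 0.07) and Il6ra, the IL-6 binding chain, by 0.30 (SE 0.06), while Il10rb, a chain of the IL-10 receptor, fell by 0.33 (SE 0.08). In KO mice Osmr rose by 0.96 (SE 0.15) and Lifr by 0.27 (SE 0.07), while Il6ra had 0.24 (SE 0.06, adjusted p = 0.0693) and Il10rb -0.25 (SE 0.08, adjusted p = 0.201). With the block as a term all 4 of these were called in KO too, Il6ra at 0.24 (adjusted p = 0.0247) and Il10rb at -0.26 (adjusted p = 0.0488). The medians over the list were 0.0088 in WT and 0.016 in KO, so most receptors lay near 0. Of 9 measured ligand genes 0 were called in WT (unadjusted p under 0.05 for Il6 alone, at 0.0172). Il6 differed by 0.21 (SE 0.08, limma adjusted p = 0.457) in WT. It was the 1 ligand called in KO, at 0.36 (SE 0.08, adjusted p = 0.0193). Its interaction of 0.15 (SE 0.12) was not called, and averaged over both genotypes it had 0.29 (SE 0.06, adjusted p = 0.00324). The part of Il6 that its probes read relative to the deletion is not given, as stated above.

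Among the other JAK, STAT and IRF9 genes, 2 of 6 measured rose in WT, the interferon mediators Stat2 (0.43, SE 0.07) and Irf9 (0.33, SE 0.07). Stat2 also rose in KO (0.38, SE 0.07), where Irf9 had 0.23 (SE 0.07, adjusted p = 0.162). Jak3 had no probe set with its symbol alone and was not tested. Of 14 other inhibitors, 2 rose in WT: Usp18, which blocks the type I interferon receptor, by 1.35 (SE 0.10), and Ptpn1, a phosphatase of JAK2, by 0.34 (SE 0.07). Usp18 rose by 1.30 (SE 0.10) in KO, where Ptpn1 had 0.08 (SE 0.07). With the block as a term 3 of the 14 were called in WT, the added one being the phosphatase Ptpn2 (0.19, adjusted p = 0.0337).

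Downstream, 12 of 25 STAT3-linked and acute-phase genes rose in WT and 6 of 25 in KO, with medians of 0.30 and 0.21. Among all genes 1.42% were called higher in WT and 1.08% in KO. Of the 25 genes, 20 lay above 0 in WT and 22 in KO. The interaction called 0 of the 25 and had a median of -0.11, so a difference between the genotypes' responses was not shown for this list. With the block as a term 13 were called in WT and 8 in KO, the added ones being Bcl3 in WT and Cebpd and Junb in KO. In WT the 4 with the smallest p were Lcn2, an iron-binding acute-phase protein (3.39, SE 0.20), Icam1, an endothelial adhesion molecule (1.20, SE 0.13), Steap4, a metalloreductase (0.80, SE 0.10), and Il4ra, the IL-4 receptor (0.38, SE 0.06). In KO Lcn2 rose by 2.31 (SE 0.20), Icam1 by 1.25 (SE 0.13), Steap4 by 0.60 (SE 0.10) and the repressor Bcl6 by 0.49 (SE 0.09). Lcn2 was the 1 gene of this list called between genotypes after LPS, at -1.04 (SE 0.17, adjusted p = 0.0164). That call was lost with the block as a term (-0.88, SE 0.16, adjusted p = 0.0722), and the block was unevenly spread over these groups. Its interaction of -1.08 (SE 0.29) had an adjusted p of 1. Of 8 genes linked to growth hormone and STAT5, 3 rose in WT, namely Gadd45g, a growth arrest gene (1.04, SE 0.07), Bcl6 (0.53, SE 0.09) and the kinase Pim1 (0.38, SE 0.07), and 2 in KO, Gadd45g (0.93, SE 0.07) and Bcl6. Bcl6 and Pim1 are in both lists.

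Interferon targets were called in 12 of 16 genes in WT and in 13 of 16 in KO, with medians of 0.70 and 0.64. Cxcl10, a chemokine, rose by 4.88 (SE 0.19) in WT and by 4.41 (SE 0.19) in KO, and Gbp5, a guanylate-binding protein, by 3.13 (SE 0.13) in each. Rsad2, an antiviral enzyme, rose by 3.41 (SE 0.15) in WT and 3.47 (SE 0.15) in KO. Among the members the largest LPS difference was 0.36 with probe sets averaged per gene (Socs2 in WT) and 0.54 for a single probe set (Socs3 in WT).

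**Figure D4:**
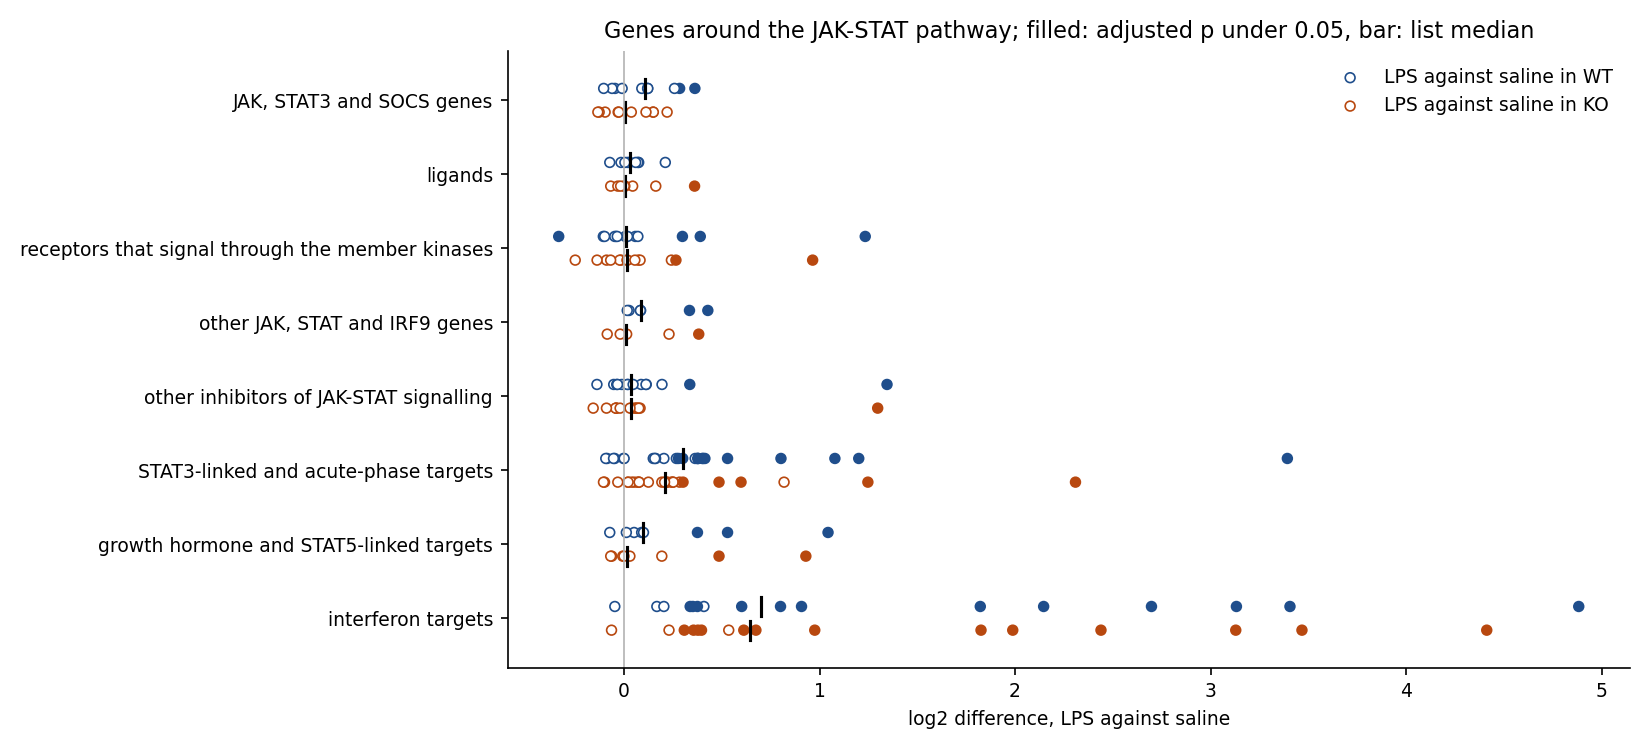
Log2 difference after LPS (x axis) for the 10 genes and for the lists of genes around them (y axis), in WT (blue) and KO (orange); each point is 1 gene, filled where the limma adjusted p was under 0.05, and bars are list medians. The members' medians are 0.11 in WT and 0.0051 in KO, and the interferon targets have the highest medians, 0.70 and 0.64.

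Markers of other cell types moved with LPS in part. Endothelial markers fell in 7 of 11 genes in each genotype, against 0.376% of all genes called lower in WT and 0.256% in KO. Their mean per array ran from 0.22 to 0.34 in WT saline and from -0.17 to -0.07 in WT LPS. In KO mice it ran from 0.28 to 0.41 after saline and from -0.09 to 0.09 after LPS. In bulk tissue fewer cells of a type and less RNA per cell cannot be told apart. The microglial gene Cx3cr1 fell in WT by 0.46 (SE 0.08, adjusted p = 0.00123), 1 of 11 markers of its list, and no marker of blood leukocytes, astrocytes, oligodendrocytes or hypothalamic neurons was called in either LPS comparison; with the block as a term the astrocyte marker Sox9 was called in KO (-0.25, SE 0.06, adjusted p = 0.0307). Choroid plexus markers stood high in WT saline replicate 1 (list mean 0.83) and WT LPS replicate 5 (0.33), and pituitary markers in KO saline replicate 2 (1.001) and KO LPS replicate 3 (0.96). Without these 4 arrays Stat3 rose in WT by 0.34 (SE 0.07, adjusted p = 0.0138) and Socs2 by 0.33 (SE 0.07, adjusted p = 0.0202). Averaged over both genotypes Stat3, Socs2 and Ptpn11 were still called without them, while the call of the averaged Socs3 value was lost (0.15, SE 0.06, adjusted p = 0.385). The part of the endothelial markers in the members' differences was not tested.

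The members were also compared with each other once group and block means were removed, without a background of other gene pairs. Over the 45 pairs the highest Pearson r across the 22 arrays was 0.57, between Socs3 and Cish, and the lowest -0.49, between Jak1 and Socs3; Stat3 and Socs3 had -0.02. The genes whose residuals were most like those of Stat3 were C730029A08Rik (r = 0.82), Tet2 (0.80) and Slfn4 (0.80), of which Slfn4 rose in WT by 0.73 (adjusted p = 5.27e-05). Most like Socs2 were Leprot (0.82), Nfe2l2 (0.81) and Clec2d (0.79). Nfe2l2 rose in WT by 0.34 (adjusted p = 0.00142) and Clec2d in both genotypes, by 0.60 in WT (adjusted p = 0.00359) and 0.81 in KO (adjusted p = 0.000125). The averaged Socs3 value was most like Ccdc185 (0.91), Cabp2 (0.89) and Sh2d2a (0.88), none of which was called. With these genes, in the same order, Socs3 probe set 10393449 alone had 0.84, 0.69 and 0.77. Probe set 10383010 alone had 0.62, 0.75 and 0.65. Ptpn11 was most like Camta1 (0.85), Gigyf2 (0.85) and Sparcl1 (0.84), also not called. The points share their arrays and were picked as the highest of 19935 genes, so these are descriptions.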

How the data were processed

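The authors deposited 1 table of log2 values, made with RMA per the submitters' processing notes (no version given), for 28815 probe sets on 22 arrays. Every probe set was centred on its median (at most 7.02e-07 from 0), so the values are differences between arrays. The base was taken as 2, since 99.9% of 619799 values sized 0.001 to 0.5 were whole multiples of 2 to the power -21 (tolerance 0.03). The genome build is not given in the sources used here.

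Of 28815 probe sets, 21780 carried 1 symbol in the platform annotation (21689 updated by gene ID through RefSeq GRCm38.p6), 1605 several and 5430 none. Single-symbol probe sets were averaged per gene. limma 3.58.1 in R 4.3.3 fitted 1 mean per group over all 22 arrays (lmFit, eBayes); tests were two-sided, with Benjamini-Hochberg adjustment over 19935 genes (or over all probe sets, where single probe sets are given) and calls at an adjusted p under 0.05. The script was tested on simulated data. Arrays have no read depth, and their number limits the precision. No 2 arrays correlated above 0.601, on the median-centred values, from which the differences in level between genes are removed.

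Replicates are numbered in deposition order. The members and gene lists were chosen with earlier results of these data known. One listed gene is not reported here. Named are all members, the Il6 gene, up to 4 called genes per list with the smallest p in an LPS comparison, genes called between genotypes, and the 3 genes most correlated with Stat3, Socs2, Socs3 and Ptpn11; single markers are named beyond that rule. Alternatives covered the array-number block, arrays left out, array weights, robust moderation, scaling and the summary of probe sets; the use of probe sets with a RefSeq mRNA only was chosen after seeing the data.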

Additional observations from a re-analysis of the deposited data

Results flagged for a closer look

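Of 56 groups of member values and single probe set values, 4 held an array far from its group by Dixon's criterion, and chance alone marks about 5% of groups; all 4 were Socs3 values, and the averaged Socs3 value is made from both probe sets, so they are not independent. KO saline replicate 4 was high in the averaged Socs3 value (0.161, with the next array at -0.224), in probe set 10383010 (0.292, next -0.135) and in probe set 10393449 (0.0287, next -0.314). WT LPS replicate 1 was high in probe set 10383010 (0.301, next 0.0951). Without KO saline replicate 4, the averaged Socs3 value passed in WT mice (0.26, adjusted p = 0.0368, limma), where the smaller spread of the KO saline group entered the shared variance, and its rise averaged over both genotypes was 0.25 (adjusted p = 0.00178).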

How the results depend on the processing

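In 34 alternative fits no member reversed its direction after being called. The count of members called after LPS in WT mice (2) fell to 0 within arrays 12 to 22 and ran from 1 to 3 over the 22 fits without 1 array, with 1 on leaving out WT saline replicate 2. Averaged over both genotypes, the count (4) was 1 within arrays 1 to 11, 0 within arrays 12 to 22 and 3 to 4 without 1 array. Between genotypes after LPS, and averaged over both treatments, the count (0 in each) was 1 with array weights and 0 to 1 without 1 array; the 1 was Stat3 without KO LPS replicate 1. The counts stayed at 0 in every fit for LPS in KO mice, for genotypes after saline and for the interaction. The within-block fits hold fewer arrays; for other lost calls the cause was not tested.

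The Stat3 call in WT held in 32 of 34 fits and that of Socs2 in 33. Socs3 was called in WT in 6 of 34, with a limma adjusted p from 0.00106 to 0.936. Among these were the fits that used its most variable probe set or RefSeq mRNA probe sets only (0.54 in both). Those fits read probe set 10393449 alone and held the lowest adjusted p. With the probe sets averaged the lowest was 0.025, where only the groups of the contrast were fitted. Averaged over both genotypes Socs3 was called in 15 of 33, the fits on probe set 10393449 alone included. The call was kept without KO saline replicate 4, WT saline replicate 3, or WT LPS replicate 6 or 7. It was also kept without KO LPS replicate 4 or 5, and was lost without any other single array. No paired analysis was possible because replicate numbers were given in deposition order and pair no arrays.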
